A study of Mus musculus with 20 samples.

Results

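The transcripts described here are those of the mitochondrial genome, the small circular DNA that mitochondria carry apart from the nuclear chromosomes. Every row of the count table placed on chromosome MT was taken, which gave 13 genes of 25965 rows, all protein-coding. Mitochondrial rRNA and tRNA genes were not analysed here, so each share below is a share held by messenger RNAs. The libraries came from the frontal cortex of C57BL/6 mice aged 5 months of a knock-in line in which Tardbp codes for TDP-43, a protein that binds RNA, with the amino acid change Q331K. There were 8 homozygous (Q331K/Q331K), 6 heterozygous (Q331K/+) and 6 wild-type (+/+) libraries, each from polyadenylated RNA. The allele was present in the whole animal, and nothing in the labels tells whether libraries of a genotype came from separate litters or batches, so p-values measure only the spread between these libraries.

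Mitochondrial DNA is transcribed from both strands into long RNAs that are cut into single messenger RNAs, largely at the tRNAs that lie between them. Its 13 proteins are core subunits of the respiratory chain. Complex I takes 7 of them, complex III takes 1, complex IV takes 3 and the ATP synthase, complex V, takes 2. All other subunits are made from nuclear genes. Neurons depend on this chain for ATP, and work in human cells has reported TDP-43 bound to the mitochondrial messages of ND3 and ND6, so these are described in full below. The comparisons asked whether the share of mitochondrial messages, the level of each, or the balance between them differed with 2 or 1 copies of the Q331K allele.

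The 13 genes were spread over the genome as follows, in GRCm38 coordinates of the deposited table. On the plus strand, in order, lay mt-Nd1, mt-Nd2, mt-Co1, mt-Co2, mt-Atp8, mt-Atp6, mt-Co3, mt-Nd3, mt-Nd4l, mt-Nd4, mt-Nd5 and mt-Cytb, and mt-Nd6 alone was on the minus strand. Genes that share a message overlap. The last 43 bases of mt-Atp8 are the first 43 of mt-Atp6, and the last 7 of mt-Nd4l are the first 7 of mt-Nd4. These stretches are shown because reads from them can be counted to either gene or to neither. The overlap is in capitals, at chrMT:7909-7969 and chrMT:7927-7987 for the first pair and at chrMT:10149-10173 and chrMT:10167-10191 for the second.
mt-Atp8, bases 144 to 204: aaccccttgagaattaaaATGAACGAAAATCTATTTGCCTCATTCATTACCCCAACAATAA
mt-Atp6, bases 1 to 61: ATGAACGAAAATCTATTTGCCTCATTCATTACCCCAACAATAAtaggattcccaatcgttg
mt-Nd4l, bases 273 to 297: aaatctcaacctactacaATGCTAA
mt-Nd4, bases 1 to 25: ATGCTAAaaattattcttccctcac

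Part of this genome also lies in the nucleus. Transcripts of GENCODE M21 (GRCm38) were searched for each gene's sequence. A block of 4653 bases, MT 6390 to 11042, was spanned by near-identical matches to 7 pseudogenes on chromosome 1, 24611535 to 24616197 on the minus strand. Such stretches are insertions of mitochondrial DNA into nuclear chromosomes. Of the 13 genes, 6 lay wholly inside this block (mt-Co2, mt-Atp8, mt-Atp6, mt-Co3, mt-Nd3 and mt-Nd4l), and 2 lay partly in it, mt-Co1 with 31.3% of its length and mt-Nd4 with 63.6%. Inside is by position alone for mt-Atp8, since no annotated transcript was a near-identical copy of it. Its closest match by alignment score was 81.4% identical over 167 bases, and sequence between the pseudogenes was not compared. The other 5 (mt-Nd1, mt-Nd2, mt-Nd5, mt-Nd6 and mt-Cytb) were outside, and their closest other matches by alignment score reached at most 96.7% identity. mt-Co1 also matched a pseudogene on chromosome 2 over its whole length at 97.6% identity. Of the 7 pseudogenes of the chromosome 1 block, 1 (Gm10222, the copy of mt-Nd4l) had a row in the count table.

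The degree of likeness is best seen in the letters. For mt-Co2 no base of the 681 in the annotated copy differs, so no letter of its first 60 bases (chrMT:7013-7072 and, for Gm28661, chr1:24615506-24615565, minus strand) is in capitals. For mt-Nd3 the copy of 345 bases differs at 1 position, T3C, counted from the first base of the gene, and that base is in capitals (chrMT:9459-9518 and, for Gm28438, chr1:24613060-24613119, minus strand). For mt-Cytb, outside the block, the closest copy by alignment score lies on chromosome 4 and is 92.9% identical. In the stretch shown 3 bases differ, in capitals (chrMT:14346-14405 and, for Gm11410, chr4:80004190-80004249).
mt-Co2, bases 1 to 60: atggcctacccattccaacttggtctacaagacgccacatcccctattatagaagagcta
Gm28661, bases 1 to 60: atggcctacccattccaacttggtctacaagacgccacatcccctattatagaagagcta
mt-Nd3, bases 1 to 60: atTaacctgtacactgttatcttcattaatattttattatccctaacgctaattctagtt
Gm28438, bases 1 to 60: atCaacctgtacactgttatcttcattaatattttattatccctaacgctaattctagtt
mt-Cytb, bases 202 to 261: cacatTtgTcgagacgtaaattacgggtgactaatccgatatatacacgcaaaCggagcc
Gm11410, bases 202 to 261: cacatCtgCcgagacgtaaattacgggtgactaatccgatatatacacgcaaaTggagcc

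Library totals ran from 61282647 to 111440766 counts. Cortical neuron genes were detected in every library, with Slc17a7, the glutamate transporter of excitatory nerve endings, at 1296 to 1493 CPM (counts scaled to library size) and Tbr1, a transcription factor of deep cortical layers, at 147.5 to 197.4 CPM. Tardbp averaged (± SD) 245 ± 10.5 CPM over the 8 homozygotes, 230 ± 7.58 CPM over the 6 heterozygotes and 218 ± 5.53 CPM over the 6 wild-type libraries, and its counts do not show which allele a read came from. Of the libraries, 4 had a score of ependymal genes (mean z score) over 0.5, homozygous replicates 1, 2 and 4 and heterozygous replicate 2.

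Mitochondrial messages made up 6.26 to 11.5% of each library's counts, and their summed share did not pass a test between genotypes. The share of all counts was 6.26% at the lowest, 7.36% at the median and 9.31% at the highest in homozygotes. In heterozygotes it was 6.51%, 8.2% and 10.5%, and in wild type 6.99%, 8.28% and 11.5%. The ranges overlapped in each pair of genotypes, with wild-type replicates 6 and 1 and heterozygous replicate 5 the highest libraries. The mean ± SD was 7.66 ± 1.01% for the 8 homozygotes, 8.15 ± 1.40% for the 6 heterozygotes and 8.69 ± 1.72% for the 6 wild-type libraries. Homozygotes differed from wild type by -1.03 percentage points (two-sided exact permutation test over 3003 splits, p = 0.189, 0.567 after Benjamini-Hochberg adjustment over the 3 comparisons). Heterozygotes differed from wild type by -0.54 points (exact permutation p = 0.567, adjusted 0.567) and homozygotes from heterozygotes by -0.49 points (exact permutation p = 0.466, adjusted 0.567).

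**Figure D1:**
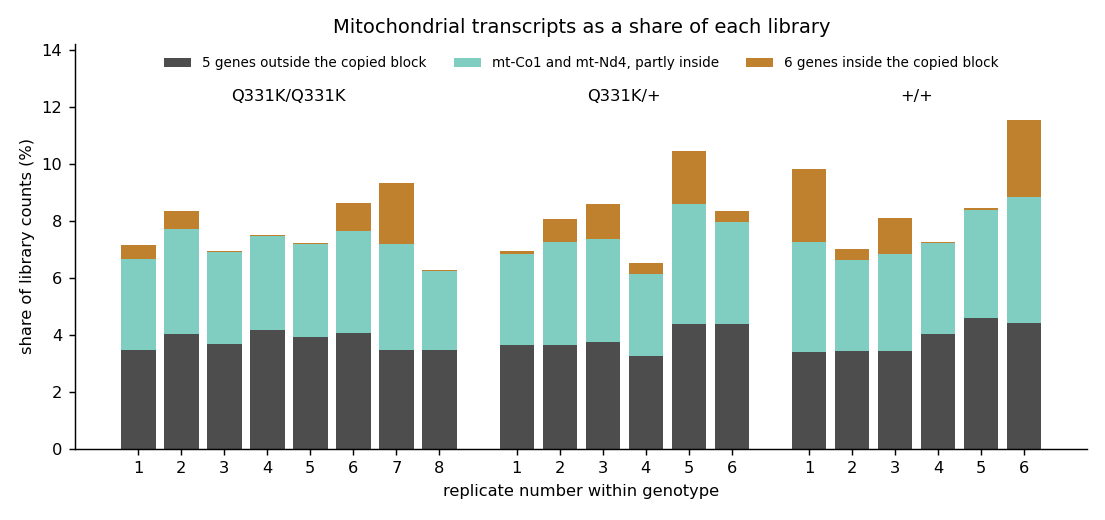
Share of all counts of each library (%, vertical axis) held by mitochondrial messages, for 8 homozygous, 6 heterozygous and 6 wild-type libraries (1 bar per library). Each bar is split into the 5 genes outside the copied block, the 2 partly inside and the 6 inside. The lowest part of the bars stays between 3.27 and 4.58%, while the uppermost part runs from 0.0159 to 2.72%.

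How much the genes varied between libraries differed by their place in the genome. The 5 genes outside the block together held 3.27 to 4.58% of counts over the 20 libraries, a 1.4-fold range. The 6 inside held 0.0159 to 2.72%, a 171-fold range. By genotype the outside genes held 3.78 ± 0.30% (mean ± SD) in the 8 homozygotes, 3.84 ± 0.44% in the 6 heterozygotes and 3.88 ± 0.54% in the 6 wild-type libraries. The difference of homozygotes from wild type for these 5 genes was -0.09 points (exact permutation p = 0.682, adjusted 0.885). The inside genes held 0.54 ± 0.73% in homozygotes, 0.79 ± 0.66% in heterozygotes and 1.17 ± 1.22% in wild type (mean ± SD, same libraries), with a difference of homozygotes from wild type of -0.63 points (exact permutation p = 0.24, adjusted 0.519). The inside genes thus held 61.2% of the summed difference between homozygotes and wild type, the 2 partial genes 29.7% and the outside genes 9.14%. The grouping by place was chosen after the values were seen.

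Read per length, the 5 outside genes and mt-Co1, which is partly inside the block, kept a fixed order. Levels averaged 19020 CPM per kb for mt-Co1, the catalytic core of complex IV, 11210 for mt-Cytb, the complex III subunit cytochrome b, 10280 for mt-Nd1, 7631 for mt-Nd2, 4194 for mt-Nd5 and 136 for mt-Nd6, the last 4 being complex I subunits. This order held in 20 of 20 libraries. Each gene was also set against the summed level per kb of mt-Nd1, mt-Nd2, mt-Nd5 and mt-Cytb in the same library. On that scale mt-Cytb stood at 140 to 149%, mt-Nd1 at 129 to 139%, mt-Nd2 at 95.1 to 103%, mt-Nd5 at 52.6 to 56.8% and mt-Nd6 at 1.42 to 2.24% over the 20 libraries. The other gene partly inside the block, mt-Nd4, had no fixed place in the order. It stood at 43.3 to 74.7%, below mt-Nd5 in some libraries and above it in others. In human cells the ND6 message is known to carry a short poly(A) tail or none, and these libraries were made from polyadenylated RNA. Whether this bears on the level of mt-Nd6 here was not tested.

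The levels of the inside genes differed widely between libraries. Summed over the 6, the level was under 5% of the same reference in 7 libraries. These were homozygous replicates 3, 4, 5 and 8, heterozygous replicate 1 and wild-type replicates 4 and 5, that is 4 of 8, 1 of 6 and 2 of 6 libraries. Their values were 0.717 to 4.2% of the reference, against 14.9 to 124% in the other 13 libraries. Homozygous replicate 7 and wild-type replicates 1 and 6 stood at 102%, 124% and 102%. Each of the 6 genes had its 7 lowest values in exactly these 7 libraries. Their library totals were 61282647 to 93332570 counts, against 75066431 to 111440766 in the other 13.

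**Figure D2:**
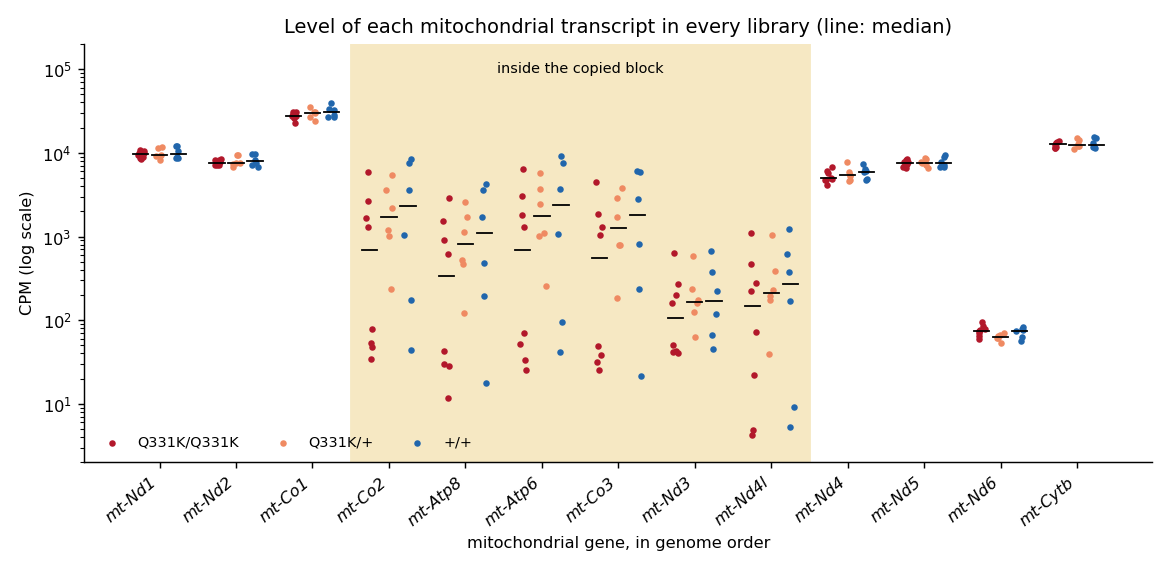
CPM (log scale, vertical axis) of each mitochondrial gene in genome order (horizontal axis), 1 point per library, with homozygous, heterozygous and wild-type libraries from left to right and the median as a line. The 6 genes on the shaded ground vary 16.4- to 361-fold between libraries, the other 7 by 1.4- to 1.88-fold.

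All 6 block genes but mt-Nd3 ranged over 243-fold or more, with mt-Atp8 (361-fold) and mt-Atp6 (359-fold) the widest, then mt-Nd4l (297-fold), mt-Co3 (282-fold) and mt-Co2 (243-fold). mt-Co2, which carries the copper centre that takes electrons from cytochrome c, was at 34.6 CPM at the lowest, 694 at the median and 5922 at the highest in homozygotes. In heterozygotes it was at 237, 1692 and 5469 CPM, and in wild type at 43.5, 2300 and 8410 CPM. High and low libraries occurred in homozygotes and in wild type alike, and the groups overlapped. mt-Atp6, the subunit that forms the proton path of the ATP synthase, was at 25.7, 686 and 6498 CPM in homozygotes, 255, 1757 and 5727 CPM in heterozygotes and 41.7, 2379 and 9219 CPM in wild type. Within genotypes the SD of its log2 CPM was 2.9, the largest of all 16690 genes tested. mt-Co3, mt-Nd4l, mt-Co2 and mt-Atp8 came at ranks 3, 4, 6 and 7. For comparison, the median over 3181 nuclear genes with a mean of at least 70.6 CPM was 0.065. The 7 genes not wholly inside the block had SDs of 0.151 to 0.247. They thus also varied more than most of these nuclear genes, at percentiles 97.45 to 99.4 of their spread.

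mt-Nd3, a small complex I subunit and the block gene whose copy differs by 1 base, varied less than its neighbours. Its level was 40.7 CPM at the lowest, 106 at the median and 636 at the highest in homozygotes, against 62.2, 166 and 581 CPM in heterozygotes and 45.9, 170 and 666 CPM in wild type. The range over all libraries was 16.4-fold, against 243- to 361-fold for the other 5 block genes. Whether the 1 differing base has a part in this was not tested. Homozygous replicate 7, heterozygous replicate 5 and wild-type replicate 1 were the highest of their groups, and the groups overlapped. The log2 change of homozygotes against wild type was -0.47 (SE 0.74, edgeR adjusted p = 0.81). Without wild-type replicate 1 it was 0.12, so its direction rests on that library.

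The row of the copy of mt-Nd4l allowed a direct look at where reads were counted. In the 7 low libraries mt-Nd4l had 351 to 6260 counts, and in the other 13 it had 14562 to 113327. Gm10222, its copy on chromosome 1, had 170 to 2057 counts in the 7 low libraries and 195 to 583 in the other 13. Its value of 2057 was in homozygous replicate 8, and the other 6 low libraries lay at 170 to 508. The low counts of mt-Nd4l were thus not matched by equally high counts on that row. How the counting treated reads that align to more than 1 place is not stated in these sources, and its part in these values was not tested.

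The 2 genes that cross the block's edges varied together with the block. The log2 count ratio of mt-Co1 to mt-Nd1 ran from 1.36 to 1.91 over the 20 libraries. Set against the log2 ratio of mt-Co2 to mt-Cytb, which shares no gene with it, Pearson's r was 0.77 (permutation p = 9e-05 with 100000 resamples, adjusted 0.000195 over 3 relations) and Spearman's rho was 0.82 (permutation p = 5e-05). The ratio of mt-Nd4, a complex I subunit with more of its length in the block, to mt-Nd1 ran from -1.12 to -0.27, with r = 0.76 (permutation p = 0.00013, adjusted 0.000195) and rho = 0.82 (permutation p = 2e-05). For mt-Nd5, outside the block, the ratio to mt-Nd1 ran from -0.46 to -0.28, with r = 0.15 (permutation p = 0.535, adjusted 0.535) and rho = 0.27 (permutation p = 0.255). Without the 2 libraries farthest from the median on the mt-Co2 ratio, r was 0.77, 0.75 and 0.05 for the 3 genes. On deviations from the genotype means r was 0.77, 0.78 and 0.20. These 3 relations were chosen after the values were seen.

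**Figure D3:**
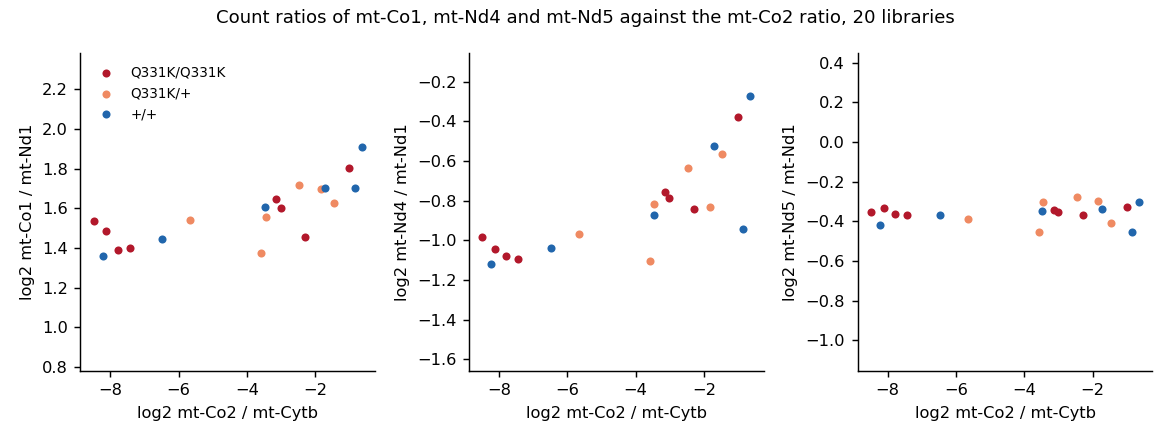
Log2 count ratios of mt-Co1, mt-Nd4 and mt-Nd5 to mt-Nd1 (vertical axes, each spanning the same length) against the log2 count ratio of mt-Co2 to mt-Cytb (horizontal axis), 1 point per library coloured by genotype. The first and second panels rise to the right, with r = 0.77 and 0.76, while mt-Nd5 stays between -0.46 and -0.28.

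No mitochondrial gene was called in any comparison. At an edgeR adjusted p under 0.05, 0 of 13 were called in homozygotes against wild type, where 1.56% of all 16690 genes were called. For heterozygotes against wild type it was 0 of 13, with 0% of all genes called, and for homozygotes against heterozygotes 0 of 13, with 0.108%. A trend over the number of Q331K alleles called 0 of 13, with 1.83% of all genes. At an unadjusted p under 0.05, 0, 0, 1 and 0 of the 13 were reached in these 4 tests, beside 2689, 532, 1838 and 2799 of all 16690 genes, and DESeq2 and limma voom also called 0. The median log2 change of the 13 in homozygotes against wild type was -0.17, with 12 negative and 1 positive, beside 0.0013 over all genes. In heterozygotes against wild type it was -0.16 (13 negative) beside 0.0017. The 12 negative values are not 12 separate observations, since block genes vary together within a library and so do outside genes.

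The size of change that could be missed differed by place. For the 5 outside genes, homozygotes against wild type gave log2 changes of -0.09 (standard error, SE, 0.10) for mt-Nd1, -0.09 (SE 0.097) for mt-Nd2, -0.06 (SE 0.081) for mt-Nd5, -0.05 (SE 0.080) for mt-Cytb and 0.08 (SE 0.10) for mt-Nd6. mt-Co1 stood at -0.17 (SE 0.098, edgeR adjusted p = 0.436) and mt-Nd4 at -0.15 (SE 0.13, edgeR adjusted p = 0.62). For the 6 inside genes the changes were -0.47 to -1.26 with standard errors (SE) of 0.74 to 1.3. mt-Co1 had the highest mean level of the 13 per kb, at 23000, 27620 and 31140 CPM (lowest, median and highest) in homozygotes, 23870, 30330 and 35640 in heterozygotes and 26540, 30440 and 39740 in wild type, with overlapping groups.

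**Figure D4:**
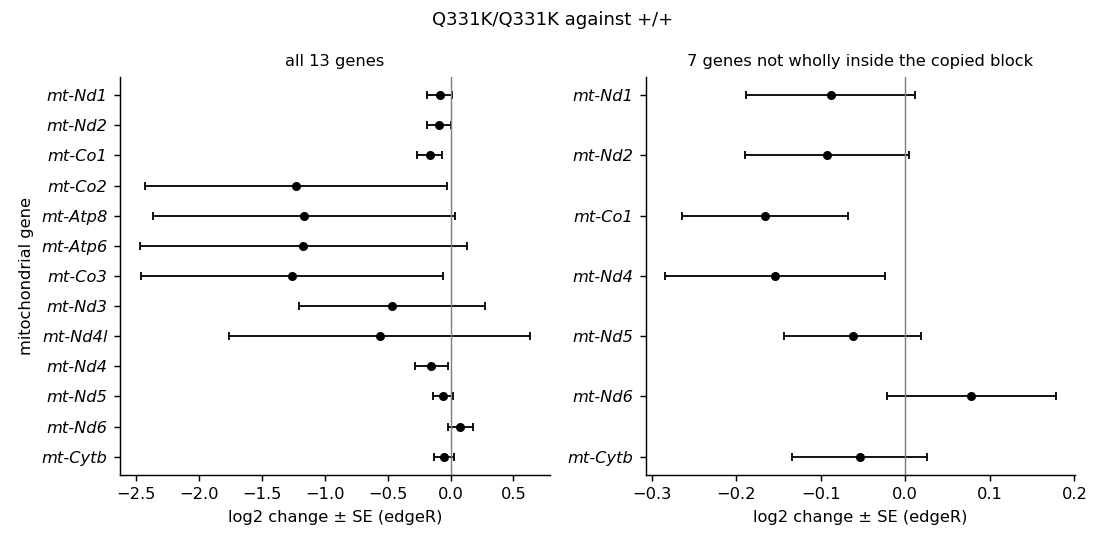
Log2 change with its standard error (SE, horizontal axes) in homozygotes against wild type for each mitochondrial gene (vertical axes, in genome order), with the 7 genes not wholly inside the copied block shown again on a finer scale. The SE is 0.74 to 1.3 for the 6 genes inside the block and 0.080 to 0.13 for the other 7.

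mt-Nd6, the 1 gene read from the other strand and the lowest of the 13 in mean level over the libraries, was the member that came closest to a difference. It was at 58.9 CPM at the lowest, 75.1 at the median and 95.4 at the highest in homozygotes, against 52.7, 63.5 and 70.3 CPM in heterozygotes and 56.4, 74.8 and 82.6 CPM in wild type. The groups overlapped, and heterozygotes had the lowest median. The log2 change of homozygotes against heterozygotes was 0.27 (SE 0.10, edgeR unadjusted p = 0.0173, adjusted 0.365). Heterozygotes differed from wild type by -0.19 (SE 0.11, edgeR adjusted p = 1). The order of the medians did not follow the number of Q331K alleles, with a trend of 0.05 per allele (SE 0.056, edgeR adjusted p = 0.721).

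The balance between strands gave the same picture. The log2 count ratio of mt-Nd6 to mt-Nd5, neighbours on opposite strands, lay between -6.86 and -6.41 in homozygotes, between -7.03 and -6.84 in heterozygotes and between -6.93 and -6.55 in wild type. Its mean ± SD was -6.64 ± 0.13 for the 8 homozygotes, -6.93 ± 0.07 for the 6 heterozygotes and -6.77 ± 0.15 for the 6 wild-type libraries. Homozygotes exceeded heterozygotes by 0.29 (exact permutation p = 0.00133), which missed the threshold after adjustment over the 45 tests of 15 ratios in 3 comparisons (adjusted p = 0.0524). The ratio of mt-Nd6 to all other mitochondrial messages, block genes among them, was higher by 0.36 in this comparison (exact permutation p = 0.00233, adjusted 0.0524). The difference in mt-Nd6 to mt-Nd5 passed without homozygous replicate 7 or without homozygous replicate 8, where the smallest adjusted p was 0.0262 in each (exact permutation). With the 4 libraries of high ependymal score left out the smallest was 0.714 (exact permutation). So few libraries then remained that 1 ratio alone could not pass after adjustment. Whether the difference rests on those 4 libraries was thus not tested. Homozygotes against wild type gave 0.13 (exact permutation p = 0.113, adjusted 0.815) and heterozygotes against wild type -0.16 (exact permutation p = 0.0346, adjusted 0.519). The 2 genes overlap by 14 bases. The kit keeps strand, but whether the counting used it is not stated in these sources, and without it reads of the opposite strand across mt-Nd6 would count to it.

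The ratios among the other outside genes were nearly constant. The log2 ratio of mt-Nd5 to mt-Cytb stayed between -0.81 and -0.66 over the 20 libraries and that of mt-Cytb to mt-Nd1, the last gene of the plus strand against the first, between 0.27 and 0.46. Their differences between homozygotes and wild type were -0.01 (exact permutation p = 0.663, adjusted 0.856) and 0.03 (exact permutation p = 0.267, adjusted 0.856). The ranges over the libraries were 1.11-fold and 1.14-fold.

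**Figure D5:**
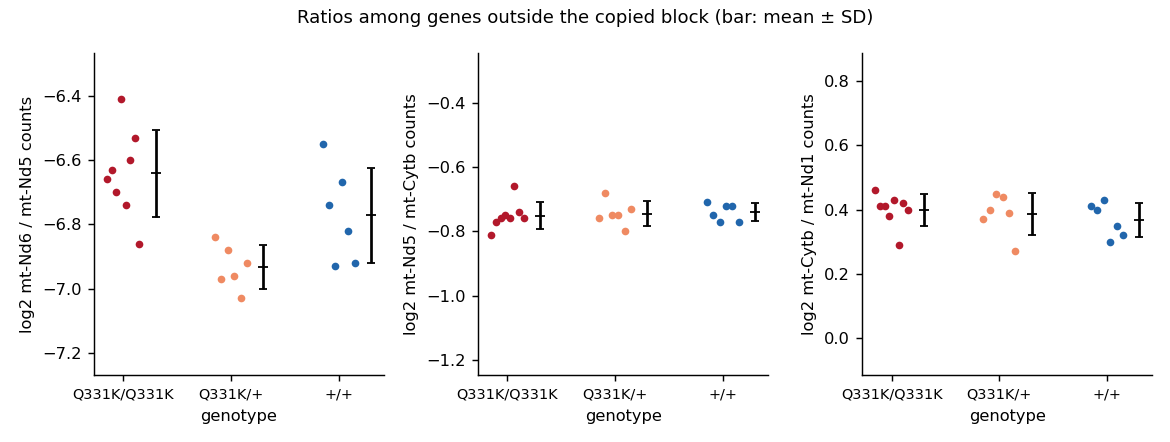
Log2 count ratios among genes outside the copied block (vertical axes, each spanning the same length) by genotype, 1 point per library with mean and SD beside it. For mt-Nd6 to mt-Nd5 the means are -6.64 in homozygotes, -6.93 in heterozygotes and -6.77 in wild type, while mt-Nd5 to mt-Cytb and mt-Cytb to mt-Nd1 span at most 1.14-fold.

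Genes that share a message were compared next. The log2 count ratio of mt-Atp8 to mt-Atp6 lay between -1.23 and -0.73 in 18 libraries, but was 1.04 in wild-type replicate 5 and -0.24 in homozygous replicate 5, both among the 7 low libraries. The ratio of mt-Nd4l to mt-Nd4, which lies only partly in the block, ran from -10.16 to -2.55, a 194-fold range. Ratios between complexes differed in spread. Complex V to complex IV ranged 180-fold, complex III to complex IV 1.98-fold and complex I to complex IV 1.67-fold. Both complex V genes lie wholly inside the block and the complex III gene lies outside it, so these spreads also follow place in the genome. In all, 0 of 15 ratios passed in each comparison of homozygotes or heterozygotes with wild type and 0 of 15 in homozygotes against heterozygotes (exact permutation, adjusted over 45 tests), and 3 of the 45 had an unadjusted p under 0.05. In heterozygotes against wild type, with 924 splits, a single ratio could not pass this adjustment even with fully separated groups.

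Most nuclear genes of the same chain were not called. Of 73 nuclear subunits of complexes I, III, IV and V tested in homozygotes against wild type, 0 were raised and 1 was lowered, beside the 1.56% called over all genes. The median log2 change was -0.05, with 68 of 73 negative, beside 0.0013 over all genes. These signs come from genes that vary together and were not tested. The lowered gene was Cox6a2, the complex IV subunit form known from heart and skeletal muscle, at 5.77 ± 0.63 CPM (mean ± SD) over the 8 homozygotes, 7.36 ± 0.711 CPM over the 6 heterozygotes and 7.66 ± 0.884 CPM over the 6 wild-type libraries. Its log2 change in homozygotes against wild type was -0.41 (SE 0.078, edgeR adjusted p = 0.00857), and the call was lost with tissue scores as covariates (adjusted p = 0.0589, edgeR) at the same log2 change. Mitochondrial messages outnumbered those of the nuclear subunits by 8.01- to 15-fold in counts, and this ratio did not pass in homozygotes against wild type (difference of -0.16 in log2, exact permutation p = 0.273, adjusted 0.856).

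Genes that act on mitochondrial RNA and DNA were also examined. With 1.56% of all genes called in homozygotes against wild type, 0 or 1 calls in lists of this size are near that share. Of 16 genes of mitochondrial transcription and replication, such as the RNA polymerase Polrmt and the packaging factor Tfam, 0 were called in homozygotes against wild type (median log2 change -0.0096). Of 39 genes of mitochondrial RNA processing and decay, such as Lrpprc, which steadies mitochondrial messages, 0 were called (median -0.0061). Among 30 other mitochondrial proteins and their regulators, 0 were raised and 1 was lowered. That gene was Esrra, a nuclear receptor that turns on respiratory chain genes, at 36.4 ± 1.33 CPM (mean ± SD) over the 8 homozygotes and 40.03 ± 1.80 CPM over the 6 wild-type libraries, with a log2 change of -0.14 (SE 0.034, edgeR adjusted p = 0.0346). Its call was lost without homozygous replicate 3, 4, 5 or 6 or wild-type replicate 1, 2, 3, 5 or 6, without the 4 libraries of high ependymal score (adjusted p = 0.105, edgeR) and with tissue scores as covariates (adjusted p = 0.248, edgeR). In heterozygotes against wild type and in homozygotes against heterozygotes, 0 genes of these lists were called, beside 0% and 0.108% of all genes.

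The mitochondrial share of a library was set against 11 other measures over the 20 libraries. The score of nuclear long noncoding RNAs (Malat1, Neat1, Meg3, Miat, Rian, Mirg and Snhg11, transcripts that stay in the nucleus) was higher where the share was higher, with r = 0.63 (permutation p = 0.00259, adjusted 0.0285 over 11 relations) and rho = 0.69 (permutation p = 0.00116, adjusted 0.0128). On deviations from genotype means r was 0.62 (permutation adjusted p = 0.0352), and without the 2 libraries farthest from the median it was 0.61 (permutation adjusted p = 0.0692). The score of meningeal genes gave r = -0.58 (permutation p = 0.00756, adjusted 0.0416) and rho = -0.48 (permutation p = 0.0334, adjusted 0.184), but without the 2 farthest libraries r was -0.24, so that relation rests on them, and its part in the share was not tested. The nuclear respiratory chain score had r = 0.05 (permutation p = 0.822, adjusted 0.832) and rho = -0.06 (permutation p = 0.787, adjusted 0.896), and log2 of the library total had r = 0.10 (permutation p = 0.681, adjusted 0.832) and rho = -0.07 (permutation p = 0.759, adjusted 0.896). With only the 5 outside genes in the share, 0 of the 11 relations passed on r with values pooled and 3 passed on deviations from genotype means, among them the nuclear noncoding RNA score (r = 0.55, permutation adjusted p = 0.0466). The score of mitochondrial transcription and replication then had r = 0.60 (permutation p = 0.00486, adjusted 0.0535) and rho = 0.63 (permutation p = 0.00386, adjusted 0.0425), and r = 0.62 (permutation adjusted p = 0.04) on deviations from genotype means. Without the 2 libraries farthest from the median it had r = 0.55 (permutation adjusted p = 0.117) and rho = 0.56 (permutation adjusted p = 0.1).

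Among 13883 nuclear genes with a mean of at least 1 CPM, those whose log2 CPM most resembled the log2 mitochondrial share, by Pearson's r over deviations of the 20 libraries from their genotype means, are given as a description. The highest were B4galt4, a galactosyltransferase (r = 0.88), Fam57a (0.80), the BMP antagonist Chrd (0.79), the potassium channel Kcnj8 (0.78) and the myosin Myo9b (0.77). The lowest were the exocyst subunit Exoc4 (-0.78), the histone deacetylase Hdac9 (-0.77), the matrix protein Thbs2 (-0.77), Rhot1, a mitochondrial GTPase that links mitochondria to their transport motors (-0.77), and the glycine receptor subunit Glra3 (-0.76). No gene was passed over for a predicted or clone name.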

How the data were processed

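Per the labels, stranded libraries were made from polyadenylated frontal cortex RNA, and the submitters' processing notes name the build GRCm38 with HISAT2 2.0.5 and Trim Galore 0.4.3. How reads were counted, and with which annotation, strand setting and rule for multiple alignments, is not given in the sources used here. The values deposited by the authors are whole-number read counts per gene, not normalised, with totals of 61282647 to 111440766 per library. Groups follow the labelled genotypes. The members, gene lists and ratios were chosen with earlier results of these data known.

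Counts of all 20 libraries were fitted in edgeR 4.0.16 (R 4.3.3; TMM, filterByExpr, robust quasi-likelihood, Benjamini-Hochberg over 16690 genes), after tests on simulated data. CPM use TMM-scaled library sizes. Shares and log2 count ratios were compared with two-sided exact permutation tests (NumPy 2.4.6), whose smallest p is 0.000333 for 8 against 6 libraries. For 6 against 6, each of the 924 splits has a mirror image with the same absolute difference, so the smallest p is above 0.00108. Relations used 100000 permutations (ranks from SciPy 1.17.1) and scores from nuclear rows only. BLAST+ 2.17.0 compared members with GENCODE M21 transcripts (matches of at least 100 bases, near-identical at 99%). Sequences are from GENCODE M21, and 13 of 13 members had the table's coordinates there.

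The 56 rows without a gene identifier held at most 0.0835% of any library and were kept. No pair of libraries within genotypes came close to sampling noise (chi-square per degree of freedom at least 13.0 over 58 pairs), so no library was counted as a repeat. Values per library were given for the summed share, mt-Nd3, mt-Nd6, the members of highest and lowest mean count per kb and any called member, with called genes of the nuclear lists and the 5 genes at each end of likeness to the share. mt-Co2 and mt-Atp6 were added after their values were seen. Alternatives were DESeq2 1.42.0, its size factors, library totals, scaling on nuclear rows, 2 other filters, the replicate number as a block, limma voom (limma 3.58.1), only the 2 genotypes compared, tissue covariates, leaving out libraries of ependymal score over 0.5 or each library in turn, and other denominators for the share.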

Additional observations from a re-analysis of the deposited data

Results flagged for a closer look

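Within groups of 6 or 8 libraries, a value was picked out where its gap to the nearest other library was large against the whole range of the group (Dixon's criterion at 95%). For roughly normal values chance picks out about 1 in 20 groups, and 16 values were picked out among 96 groups. Shares and CPM were judged without taking logs, so that rate need not hold for the widely spread block genes. For mt-Co2 the log2 CPM of homozygous replicates 7, 6 and 3 was 12.53, 11.4 and 5.11, the 2 highest and the lowest of that group. Many of these values are linked, since the block genes vary together within a library.

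Homozygous replicate 7 stood above the other homozygotes in the summed share of the 6 block genes, at 2.12% of counts, and in mt-Co2 at 5922 CPM, mt-Atp6 at 6498 CPM, mt-Co3 at 4455 CPM, mt-Nd3 at 636 CPM and mt-Nd4l at 1092 CPM. It stood below them in the log2 ratio of complex I to complex IV, at -0.39, and of complex III to complex IV, at -1.81. Heterozygous replicate 5 stood above the other heterozygotes in mt-Nd3, at 581 CPM, and in mt-Nd4l, at 1030 CPM.

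The log2 ratio of mt-Atp8 to mt-Atp6 was far above its group in wild-type replicate 5, at 1.04, and in homozygous replicate 5, at -0.24. That of mt-Co3 to mt-Atp6 was far above its group in wild-type replicate 5, at 1.31, and in homozygous replicate 3, at 0.58. These libraries are among the 7 with low block genes. In homozygous replicate 6 the log2 ratio of mt-Cytb to mt-Nd1 was low, at 0.29, and that of mt-Nd5 to mt-Cytb was high, at -0.66.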

How the results depend on the processing

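Under each alternative run, 0 of 13 mitochondrial genes were called and no share passed. For homozygotes against wild type the difference in share was -1.41 points when counts were set over nuclear genes without the 50 highest, -1.24 over all other counts, -1.02 without the 4 libraries over the ependymal limit and -0.09 with only the 5 outside genes (added after seeing the data). Leaving out 1 library in turn gave -1.37 to -0.46 for homozygotes against wild type, -1.001 to 0.031 for heterozygotes against wild type, where the sign turned without wild-type replicate 6, and -0.82 to -0.03 for homozygotes against heterozygotes. The number of ratios passing in homozygotes against heterozygotes was 0 to 2, with 2 without homozygous replicate 7 and 1 without homozygous replicate 8. Relations that passed numbered 2 with values pooled, 1 on deviations from genotype means, 0 without the 2 farthest libraries, and, with values pooled, 0 with only the outside or only the inside genes in the share. In homozygotes against wild type, the genes that changed sign under an alternative all lay inside the block. With tissue scores as covariates the log2 change of homozygotes against wild type was 0.19 for mt-Co2, 0.24 for mt-Atp8, 0.31 for mt-Atp6, 0.31 for mt-Nd3 and 0.97 for mt-Nd4l. Leaving out 1 library gave -1.12 to 0.12 for mt-Nd3 and -1.38 to 0.21 for mt-Nd4l. The cause was not tested. Esrra ranged from -0.16 to -0.12 when 1 library was left out.

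The genotypes share replicate numbers. Deviations of same-numbered libraries were at most weakly related (r from -0.18 to 0.21, over 0.1 in 4, 1 and 2 of 6 pairs). Whether the numbers stand for a shared litter or batch was not tested. Of 6 libraries, 2, 0 and 1 in the 3 comparisons were closest to their own number. With the replicate block, the differences in share were -1.07 points for homozygotes against wild type (sign-flip exact p = 0.25), -0.54 for heterozygotes against wild type (exact p = 0.531) and -0.53 for homozygotes against heterozygotes (exact p = 0.531), 0 genes and 0 ratios passed, and both nuclear calls named in the text were kept. With only 64 sign flips, a single ratio or share could not pass after adjustment, so their failure to pass there carries no information. The ratios that need rRNA or tRNA genes (4 of 19) were not run. At 351 counts or more per member and library, counting error was small against the spread between libraries.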

Other observations

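Over the share of the 5 genes outside the block alone, chosen after the data were seen, the nuclear genes of highest likeness by Pearson's r over deviations of the 20 libraries from their genotype means were Ppap2b, a lipid phosphatase (0.90), the calcium-binding protein S100a1 (0.89), the potassium channel Kcnj16 (0.88), the matrix protein Sparcl1 (0.87) and Bola3, which takes part in iron-sulfur cluster assembly in mitochondria (0.85). Sparcl1 and Kcnj16 are known from astrocytes. The lowest were Tmem64 (-0.89), Lonrf1 (-0.88), Tollip, an adaptor of Toll-like receptor signalling (-0.87), the histone chaperone Nap1l4 (-0.86) and Pcsk1, a protease that cuts prohormones (-0.85), with 1 predicted gene passed over. These values are descriptions and carry no test.

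The score of other mitochondrial proteins had r = -0.54 with the share of the outside genes on deviations from genotype means (permutation p = 0.0106, adjusted 0.0466 over 11 relations) and rho = -0.54 (permutation p = 0.0166, adjusted 0.0912). With values pooled, r was -0.38 (permutation p = 0.0947, adjusted 0.347) and rho was -0.40 (permutation p = 0.0806, adjusted 0.296). Without the 2 libraries farthest from the median of that score, r was -0.15.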
